A study of Mus musculus with 8 samples.

Results

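The genes described here encode 10 core enzymes and carriers of superoxide, peroxide and thioredoxin defence: Sod1, Sod2, Cat, Gpx1, Gpx4, Prdx1, Prdx3, Prdx5, Txn1 and Txnrd1. They were found by symbol among the 25690 Ensembl genes of an RNA-seq table of mouse liver, and all 10 were present. The libraries were 4 from mice with a hepatic knockout of Foxo1 (numbers 3, 9, 10 and 11) and 4 from wildtype controls (numbers 1, 3, 10 and 12). Foxo1 encodes a forkhead transcription factor that insulin signalling holds out of the nucleus. The labels state neither strain, age, sex and feeding state nor how Foxo1 was deleted. Whether each library stands for its own mouse is not stated either, and the spread behind each p-value may therefore be technical.

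Superoxide leaking from the respiratory chain and from oxidases is converted to hydrogen peroxide by superoxide dismutases. Peroxide is then removed by catalase in peroxisomes, by glutathione peroxidases at the cost of glutathione, and by peroxiredoxins, whose cysteines are reduced again by thioredoxin and, through thioredoxin reductase, by NADPH. The liver is rich in these enzymes because its peroxisomes, mitochondria and cytochromes P450 produce peroxide at a high rate. Sod2 and Cat are known FoxO targets in other cells, and Prdx1, Txn1 and Txnrd1 are known targets of NRF2, the factor encoded by Nfe2l2.

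Values are FPKM, fragment counts scaled to transcript length and library depth, and differences are on the log2(FPKM + 1) scale, knockout minus wildtype. The targeted gene was at 0.224, 0.267, 0.375 and 0.212 FPKM in knockouts 3, 9, 10 and 11, against 3.01 to 3.81 FPKM in wildtype liver. All 8 hepatocyte markers checked were detected, but Alb is listed at 0 in knockout 10. In limma 1 of these 8 was higher, Hnf4a, and 0 lower, where 2.7% and 11.7% of all tested genes were. Hnf4a was at 69.7 to 95.8 FPKM in knockout and 55.7 to 70.5 FPKM in wildtype liver. Acute phase transcripts were high in a pair of knockouts: the summed level of 18 such genes was 114000 and 108000 FPKM in knockouts 3 and 11 and 15000 and 15700 FPKM in knockouts 9 and 10, against 12200 to 13100 FPKM in wildtype liver. Summed neutrophil markers were 63.2 and 156 FPKM in knockouts 3 and 11, 3.33 and 6.57 FPKM in knockouts 9 and 10, and 1.88 to 5.61 FPKM in wildtype liver. Of 8 erythroid markers 5 were tested and 0 passed in limma, and their sum was 1070 to 3560 FPKM in knockout and 1430 to 5780 FPKM in wildtype liver. Among 8 stellate cell markers 3 were tested and 0 passed in limma. Summed stellate markers were 25.2, 58.8, 41.6 and 29.5 FPKM in knockouts 3, 9, 10 and 11, against 50.0 to 59.2 FPKM in wildtype liver. Of 8 sinusoidal endothelial markers 7 were tested and 2 were lower in limma, Stab1 and Fcgr2b, where 11.7% of all tested genes were. Their sum was 36.6 to 62.3 FPKM in knockout liver, below the 62.6 to 81.0 FPKM in wildtype liver. Stab1 made up a large part of it, and the groups overlapped for every marker of the list other than Stab1 and Fcgr2b. The median log2 deviation of the 8 markers from the wildtype mean was -0.43, -0.55, 0.03 and -0.49 in knockouts 3, 9, 10 and 11. The part of these cells and of the acute phase state in the differences below was not tested, apart from the comparisons that leave out knockouts 3 and 11. In whole tissue, fewer cells of a type and less RNA per cell cannot be told apart.

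Of the 10 genes 5 were lower in knockout liver and 0 higher in limma (Benjamini-Hochberg adjusted p under 0.05 over 10250 tested genes), and 6 were lower and 0 higher at an unadjusted p under 0.05. Txn1, Prdx5, Sod1, Sod2 and Gpx4 fell, by 0.62, 0.56, 0.51, 0.46 and 0.32 on the log2 scale. Cat, Gpx1, Prdx1, Prdx3 and Txnrd1 did not pass. Over all tested genes 11.7% were called lower and 2.7% higher, and 2330 were lower and 796 higher at an unadjusted p under 0.05. The median log2 change of the 10 genes was -0.31, against -0.08 over all tested genes. Several of these genes have short transcripts, and short transcripts were lower in the knockout libraries in general: when the tested genes were split into 10 equal classes by the length of the principal transcript (the isoform that the annotation marks as principal), 37.7% of the shortest class were called lower and 24.5% of the next. With the trend along principal transcript length removed, 1 of the 10 genes was lower, Sod2, where 5.25% of all genes were. With the trend along coding length removed 0 passed in limma, where 5.53% of all genes were lower. At an unadjusted p under 0.05 in limma 4 were lower and 0 higher, where 1386 of 9624 genes were lower and 1412 higher. Median-ratio scaling left 2, Prdx5 and Sod2, where 7.02% of all genes were lower, and leaving out knockouts 3 and 11 left 2, Sod2 and Txn1, where 6.4% were. With knockouts 3 and 11 left out and the principal length trend removed, 0 of the 10 genes passed in limma, where 2.05% of all genes were lower. There, 2 were lower and 0 higher at an unadjusted p under 0.05, where 1250 of 10149 genes were lower and 1283 higher. Leaving out wildtype 1 also left 0 that passed, where 5.84% of all genes were lower. At an unadjusted p under 0.05 in limma it left 6 lower, where 1943 of 10250 genes were lower. Leaving out wildtype 3, 10 or 12, each alone, left 3, 3 and 2 that passed, where 896, 744 and 745 of 10250 genes were lower.

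**Figure D1:**
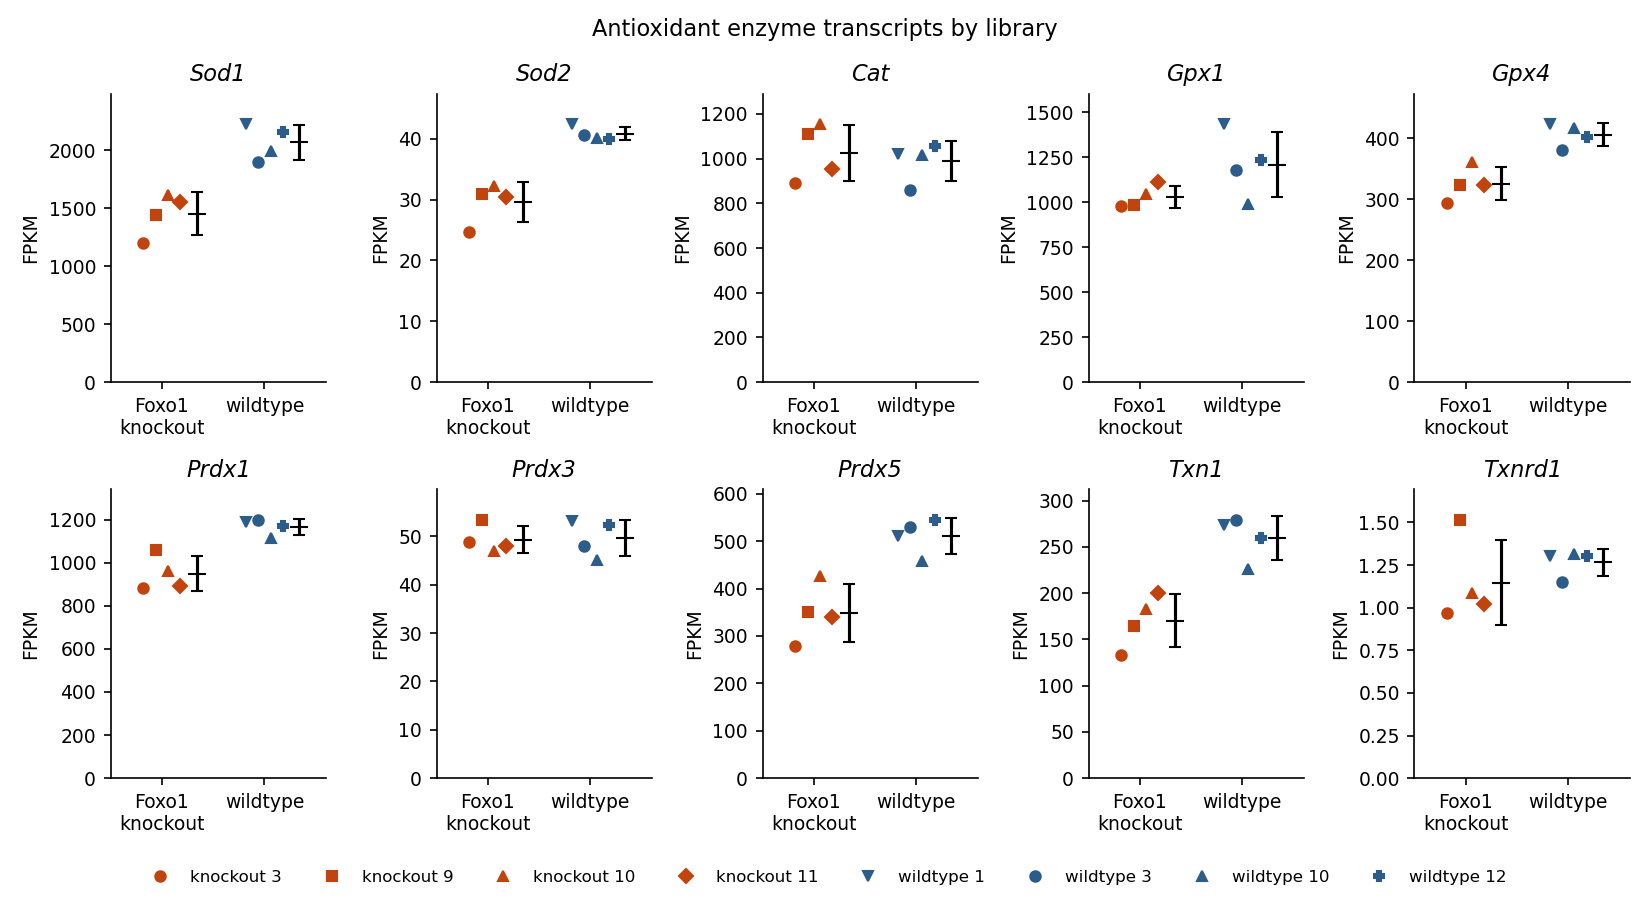
FPKM of the 10 genes in each library (vertical axes from 0), with knockout libraries in orange on the left and wildtype libraries in blue on the right of each panel; black bars give the mean and SD of 4 libraries. The groups do not overlap for Sod1, Sod2, Gpx4, Prdx1, Prdx5 and Txn1 and overlap for Cat, Gpx1, Prdx3 and Txnrd1.

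Both intracellular superoxide dismutases were lower. Sod1 (chromosome 16, 90220754 to 90226329, mm10, plus strand), the copper and zinc enzyme of the cytosol, was the most abundant of the 10 transcripts, at 1201, 1443, 1613 and 1558 FPKM in knockouts 3, 9, 10 and 11, against 2223, 1899, 1993 and 2155 FPKM in wildtypes 1, 3, 10 and 12. Every knockout library lay below every wildtype library, and knockout 3 was the lowest. The mean was 1454 ± 183 FPKM in knockout and 2067 ± 148 FPKM in wildtype liver (SD, n = 4 each), which was 29.7% lower in the knockout (log2 change -0.51, SE 0.12, limma adjusted p = 0.0234). The call depended on the length used for Sod1. Its principal transcript has 641 bases but its longest annotated one 3970, and the log2 change was -0.13 with the trend along principal length removed (limma adjusted p = 0.411), -0.26 with coding length (0.129) and -0.47 with the longest transcript (0.0381). Leaving out wildtype 1, 10 or 12 ended the call (the highest limma adjusted p was 0.0798), as did leaving out knockouts 3 and 11 together (-0.44, 0.0506). Whether reads were counted by strand is not stated, and Scaf4, which overlaps Sod1 on the other strand, averaged 3.3 FPKM in knockout and 3.93 FPKM in wildtype liver, far below Sod1.

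Sod2 (chromosome 17, 13006846 to 13040063, plus strand), the manganese enzyme of the mitochondrial matrix, was at 24.7, 30.9, 32.2 and 30.4 FPKM in knockouts 3, 9, 10 and 11, against 42.4, 40.65, 40.2 and 40.0 FPKM in wildtypes 1, 3, 10 and 12. The groups were well apart, and the wildtype libraries varied little. Means were 29.6 ± 3.33 FPKM in knockout and 40.8 ± 1.07 FPKM in wildtype liver (SD, n = 4 each), a difference of -27.5% (log2 change -0.46, SE 0.10, limma adjusted p = 0.015). Sod2 passed without knockouts 3 and 11 (-0.36, limma adjusted p = 0.0441) and with the trend along principal transcript length removed (-0.44, 0.0269), but not with coding length (-0.28, 0.0586). Its principal transcript is long, at 5861 bases, while its coding part has 666. It was also lost without wildtype 1 (0.0551). The log2 ratio of Sod1 to Sod2 was 5.57 ± 0.06 in knockout and 5.63 ± 0.09 in wildtype liver (SD, n = 4 each, difference -0.06, exact two-sided permutation p = 0.343, adjusted p = 0.429 over 5 ratios of these genes).

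Ccs, the chaperone that loads copper into SOD1, was lower as well, at 75.6, 89.3, 104.5 and 92.5 FPKM in knockouts 3, 9, 10 and 11, against 139, 131, 134 and 156 FPKM in wildtypes 1, 3, 10 and 12 (log2 change -0.63, SE 0.11, limma adjusted p = 0.00881). It passed with the trend along coding length removed (-0.49, limma adjusted p = 0.0174) and without knockouts 3 and 11 (-0.53, 0.0352). The change was smaller with the trend along principal transcript length removed (-0.36, 0.0339) or along the longest transcript (-0.35, 0.0344), and it did not pass with knockouts 3 and 11 left out and the principal trend removed (-0.29, 0.107). The extracellular enzyme gene Sod3 was low, at 2.34 to 5.94 FPKM in knockout and 2.36 to 3.5 FPKM in wildtype liver, with limma giving an adjusted p of 0.422.

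The catalase transcript did not pass the test. Cat (chromosome 2, 103453849 to 103485160, minus strand), whose heme enzyme splits peroxide in peroxisomes, was at 891, 1109, 1153 and 952 FPKM in knockouts 3, 9, 10 and 11, against 1022, 859, 1018 and 1056 FPKM in wildtypes 1, 3, 10 and 12. The groups overlapped, with knockout 3 and wildtype 3 the lowest libraries. The mean was 1026 ± 125 FPKM in knockout and 989 ± 88.1 FPKM in wildtype liver (SD, n = 4 each, log2 change 0.05, SE 0.12, limma adjusted p = 0.819). Its sign turned without knockout 10 (-0.01) or wildtype 3 (-0.02).

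The glutathione peroxidases encoded by Gpx1 and Gpx4 use a selenocysteine, which is read from a TGA codon that would otherwise end translation. Thioredoxin reductase carries one near its end. The codon and the bases around it were read from the GENCODE transcripts to show this shared feature of Gpx1, Gpx4 and Txnrd1, with the TGA in capitals and its mm10 position given.
Gpx1, chr9:108339451-108339453, plus strand: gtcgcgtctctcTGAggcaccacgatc
Gpx4, chr10:80054737-80054739, plus strand: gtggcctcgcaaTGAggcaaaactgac
Txnrd1, chr10:82896037-82896039, plus strand: cagtctggctgcTGAggttaagcccca
In each of the 3 sequences the codon is followed by gg, and the surrounding bases differ.

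Gpx1 (chromosome 9, 108338903 to 108340343, plus strand), the main soluble glutathione peroxidase, was at 977, 987, 1045 and 1112 FPKM in knockouts 3, 9, 10 and 11, against 1432, 1177, 991 and 1233 FPKM in wildtypes 1, 3, 10 and 12. The groups overlapped through wildtype 10, and Gpx1 did not pass (log2 change -0.22, SE 0.12, limma adjusted p = 0.274). With the trend along principal transcript length removed the change was 0.05. Gpx4 (chromosome 10, 80047166 to 80056439, plus strand), which reduces lipid peroxides in membranes, was at 294, 324, 360 and 324 FPKM in knockouts 3, 9, 10 and 11, against 422, 380, 417 and 403 FPKM in wildtypes 1, 3, 10 and 12. Every knockout library lay below every wildtype library, and the change passed narrowly (log2 change -0.32, SE 0.09, limma adjusted p = 0.0499). It was lost without any single library except knockout 10 (limma adjusted p up to 0.138), without knockouts 3 and 11 (-0.25, 0.152), with a pseudocount of 0.1 (0.0507), and with the trend along principal transcript length removed (-0.02, 0.862). The log2 ratio of Gpx1 to Gpx4 was 1.66 ± 0.11 in knockout and 1.56 ± 0.22 in wildtype liver (SD, n = 4 each, difference 0.10, exact two-sided permutation p = 0.571, adjusted p = 0.571).

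Of the 3 peroxiredoxins 1 passed the test, Prdx5. This gene (chromosome 19, 6906697 to 6910106, minus strand), an atypical peroxiredoxin of mitochondria, peroxisomes and cytosol, was at 279, 350, 426 and 339 FPKM in knockouts 3, 9, 10 and 11, against 511, 530, 459 and 544 FPKM in wildtypes 1, 3, 10 and 12. Its means were 349 ± 60.5 FPKM in knockout and 511 ± 37.1 FPKM in wildtype liver (SD, n = 4 each), with a log2 change of -0.56 (SE 0.13, limma adjusted p = 0.0227). The groups did not overlap, and knockout 3 was again the lowest. The call was lost when wildtype 1, 3 or 12 was left out (limma adjusted p up to 0.0663), without knockouts 3 and 11 (-0.40, 0.0809) or with the trend along principal transcript length removed (-0.34, 0.0809). Trmt112, which overlaps Prdx5 on the other strand, averaged 35.5 FPKM in knockout and 55.8 FPKM in wildtype liver. That gap was smaller than that of Prdx5 in FPKM but larger relative to the level of the gene. Its part in the Prdx5 values was not tested.

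Prdx1 (chromosome 4, 116685544 to 116700822, plus strand), the abundant cytosolic enzyme, was at 882, 1059, 960 and 891 FPKM in knockouts 3, 9, 10 and 11, against 1187, 1196, 1113 and 1171 FPKM in wildtypes 1, 3, 10 and 12. The groups did not overlap, as for 6 of the 10 genes, all 6 lower in the knockout, while 16.5% of all tested genes had groups apart in that direction. Prdx1 did not pass over all genes (log2 change -0.30, SE 0.10, limma adjusted p = 0.0678). It did with a mean of at least 5 FPKM required (0.0482), with library weights (0.0386) and without knockout 9 (0.0366). Prdx3 (chromosome 19, 60864051 to 60874556, minus strand), the peroxiredoxin of the mitochondrial matrix, was at 48.8, 53.3, 47.0 and 47.9 FPKM in knockouts 3, 9, 10 and 11, against 53.1, 47.9, 45.2 and 52.3 FPKM in wildtypes 1, 3, 10 and 12. Its groups covered the same range (log2 change -0.01, SE 0.09, limma adjusted p = 0.959).

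Set against Prdx3 in the same library, both other peroxiredoxins were lower in each knockout library. The log2 ratio of Prdx1 to Prdx3 was 4.24 ± 0.08 in knockout and 4.53 ± 0.09 in wildtype liver, and that of Prdx5 to Prdx3 was 2.78 ± 0.28 in knockout and 3.34 ± 0.08 in wildtype liver (SD, n = 4 each). The differences were -0.29 and -0.55, and for both the exact two-sided permutation p was 0.0286, the smallest that 4 against 4 can give (adjusted p = 0.0715 over 5 ratios, which did not pass). All 5 ratios were chosen after seeing the data. The groups were already known to be apart for Prdx1 and Prdx5 and to overlap for Prdx3, so these p-values add no separate support. Transcript lengths are 2294 bases for Prdx1, 1262 for Prdx5 and 1478 for Prdx3, so the length trend enters these ratios unequally.

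In the thioredoxin system the carrier was lower and its reductase scarce. Txn1 (chromosome 4, 57943373 to 57956411, minus strand), the cytosolic thioredoxin that returns peroxiredoxins to their reduced form, was at 134, 165, 183 and 200 FPKM in knockouts 3, 9, 10 and 11, against 274, 279, 226 and 260 FPKM in wildtypes 1, 3, 10 and 12. The groups were apart, and knockout 3 was the lowest. Means were 170 ± 28.3 FPKM in knockout and 260 ± 23.6 FPKM in wildtype liver (SD, n = 4 each), and the 34.4% lower mean was the largest relative difference of the 10 genes (log2 change -0.62, SE 0.13, limma adjusted p = 0.0165). It held without knockouts 3 and 11 (-0.57, limma adjusted p = 0.0293) and was lost without wildtype 1 (0.0572), with median-ratio scaling (-0.51, 0.0523) and with the trend along principal transcript length removed (-0.34, 0.0885).

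Txnrd1 (chromosome 10, 82833951 to 82897712, plus strand), the cytosolic reductase that passes electrons from NADPH to thioredoxin, was at 0.968, 1.51, 1.09 and 1.02 FPKM in knockouts 3, 9, 10 and 11, against 1.30, 1.15, 1.32 and 1.30 FPKM in wildtypes 1, 3, 10 and 12. These levels correspond to an estimated 110 to 160 fragments per library, against 1900 or more for each of the other genes, so Txnrd1 was measured least precisely. Gm38560, Gm47073 and Eid3 overlap it. The groups overlapped, with knockout 9 above all other libraries (log2 change -0.08, SE 0.10, limma adjusted p = 0.618). The log2 ratio of Txn1 to Txnrd1 was 6.31 ± 0.29 in knockout and 6.84 ± 0.17 in wildtype liver (SD, n = 4 each, difference -0.53, exact two-sided permutation p = 0.0571, adjusted p = 0.0952).

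**Figure D2:**
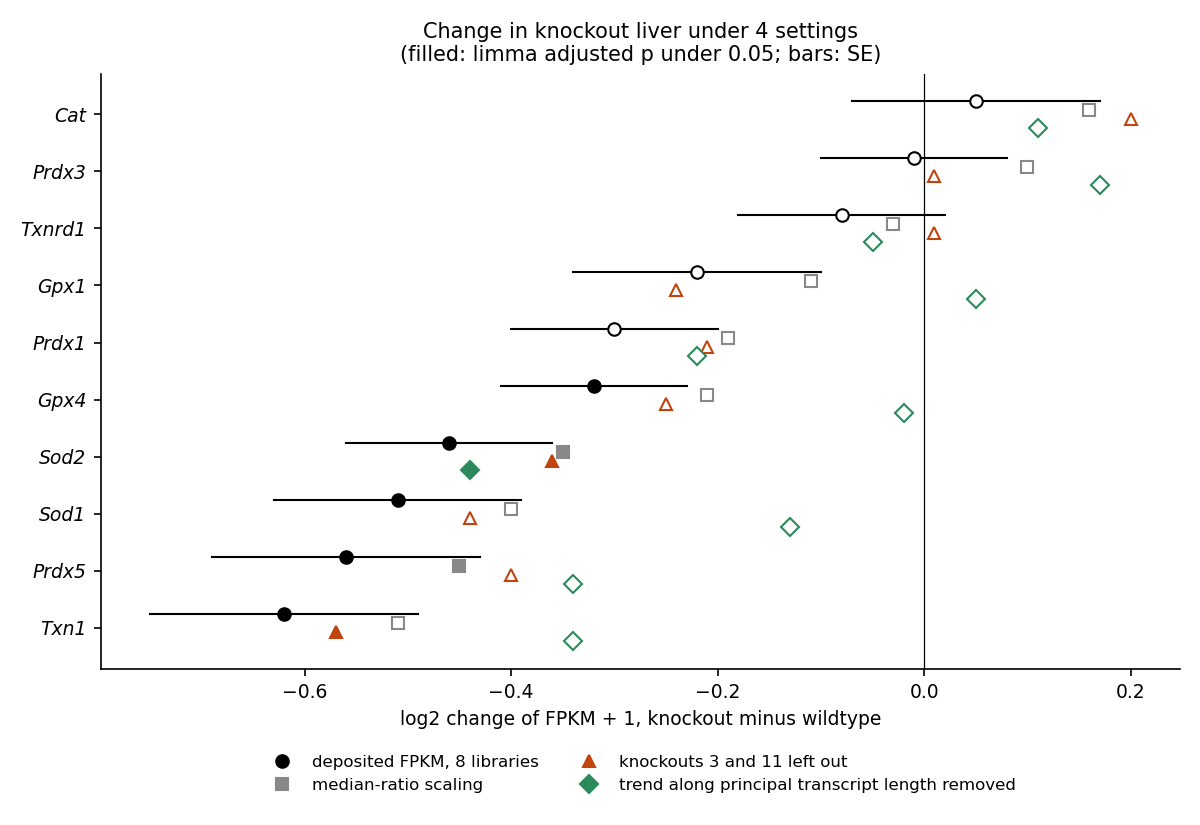
Log2 change of each gene (horizontal axis, FPKM + 1, knockout minus wildtype) with all libraries and deposited values, with median-ratio scaling, without knockouts 3 and 11, and with the trend along principal transcript length removed; filled symbols passed in limma and bars are SE. Sod2 is filled under all 4 settings, and Sod1 moves from -0.51 to -0.13 when the length trend is removed.

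The length dependence touched these genes unequally. Median log2 changes were -0.33 in the shortest class of tested genes (85 to 1005 bases), where Sod1 and Gpx4 belong, and -0.23 in the second (1006 to 1466 bases), where Gpx1, Prdx5 and Txn1 belong. The median was -0.08 in the fifth class, with Cat and Prdx1, and -0.02 in the ninth, with Sod2. In the shortest class every knockout library was lower than every wildtype library, at a median deviation from the wildtype mean of -0.43, -0.38, -0.29 and -0.27 in knockouts 3, 9, 10 and 11, against -0.06 to 0.03 in wildtype libraries. Gpx1 and Gpx4, at -0.22 and -0.32, lay next to the median of their class. Sod1, Sod2, Txn1, Prdx5 and Prdx1 lay further below theirs, and Cat and Prdx3 lay above.

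**Figure D3:**
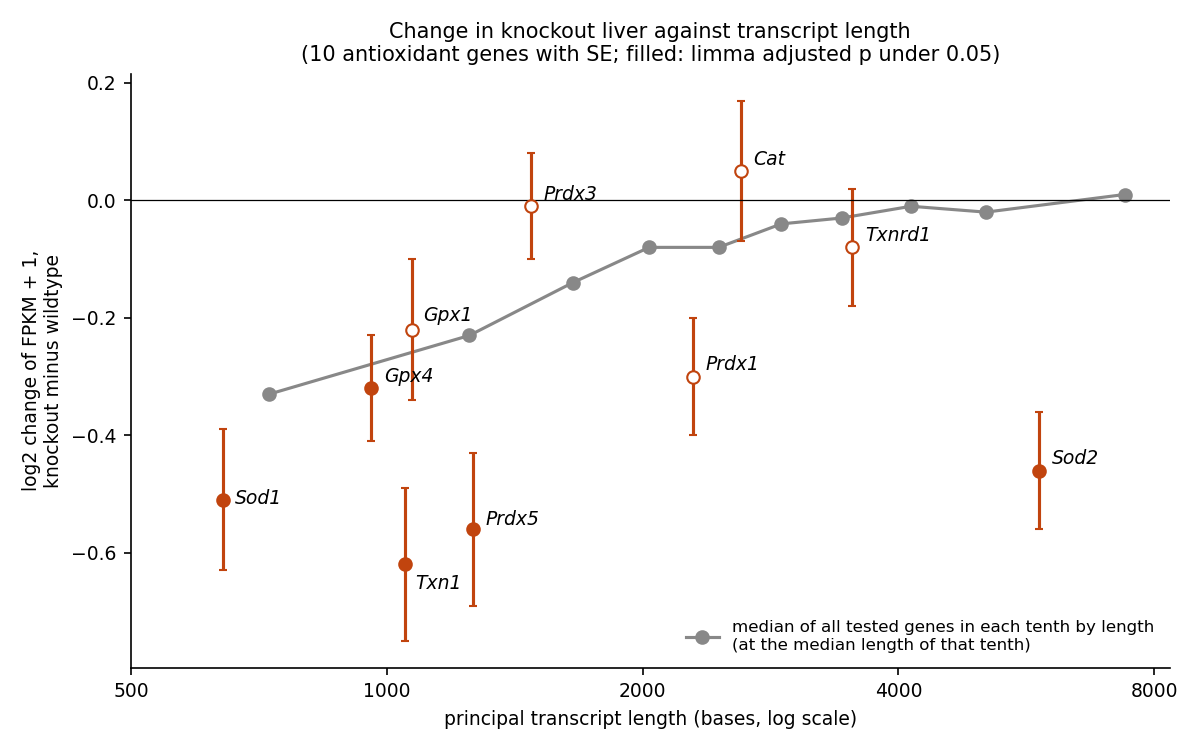
Log2 change (vertical axis, FPKM + 1, knockout minus wildtype) against principal transcript length in bases (log axis) for the 10 genes, with SE, beside the median of all tested genes in each of 10 length classes in grey. The grey line runs from -0.33 for the shortest genes to 0.01 for the longest; Gpx1 and Gpx4 lie near it, and Sod1, Sod2, Txn1, Prdx5 and Prdx1 lie below it.

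Among the knockout libraries number 3 held the lowest value for 9 of the 10 genes, Prdx3 being the exception, and number 10 the highest for 5. The median deviation of the 10 genes from the wildtype mean was -0.43, -0.30, -0.23 and -0.35 in knockouts 3, 9, 10 and 11, against -0.06 to 0.06 in wildtype libraries. Over all tested genes the medians were -0.15, 0.00, -0.04 and -0.16 in the same knockouts. Knockouts 3 and 11, with high acute phase transcripts, held the lowest pair of knockout values for Sod2, Cat, Prdx1, Prdx5 and Txnrd1. Txn1 and Gpx1 were at their highest knockout level in number 11 and at their lowest in number 3.

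**Figure D4:**
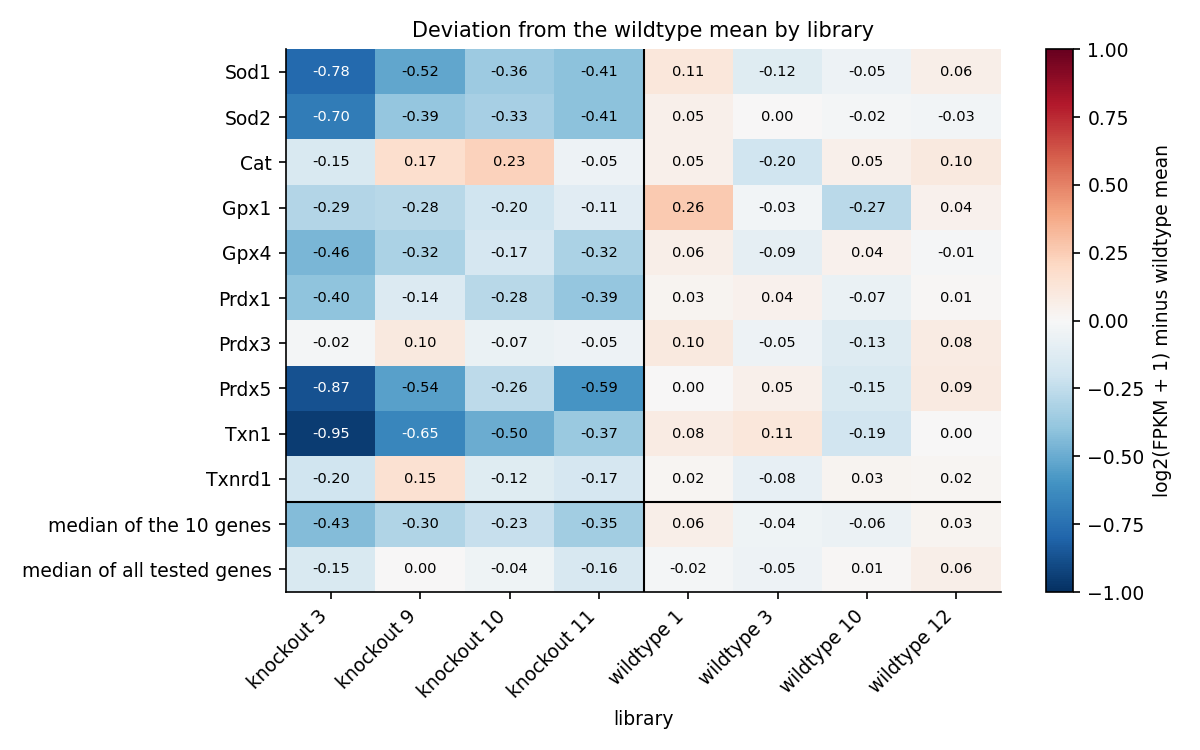
Deviation of log2(FPKM + 1) from the wildtype mean for each gene (down the page) and library (across, knockouts left of the line), blue for lower and red for higher, with the medians of the 10 genes and of all tested genes in the last rows. Knockout 3 is lowest in 9 of 10 genes, and Cat is above 0 in knockouts 9 and 10.

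The order of the levels was nearly the same in both groups. In knockout liver it ran Sod1, Gpx1, Cat, Prdx1, Prdx5, Gpx4, Txn1, Prdx3, Sod2 and Txnrd1, from 1454 to 1.15 FPKM, and in wildtype liver Prdx1 stood above Cat. In knockout liver the ranges of Gpx1 and Cat, of Cat and Prdx1, and of Prdx5 and Gpx4 overlapped, whereas in wildtype liver only those of Gpx1 and Prdx1 did among neighbours in the order. FPKM are scaled to transcript length, but the length used for each gene is not given, so the order between genes is approximate. For Sod1 the principal transcript has 641 bases and the longest 3970. Mitochondrial Sod2 and Prdx3 were at 29.6 and 49.25 FPKM in knockout liver, far below the 1454 and 948 FPKM of Sod1 and Prdx1, their counterparts in the cytosol.

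On deviations from the group means, Sod1 and Sod2 were the pair most alike (Pearson r = 0.87 over the 8 libraries), followed by Gpx4 with Sod1 (0.86) and Cat with Gpx4 (0.83). Prdx1 and Txnrd1 were most like each other (0.79), and the gene most like Txn1 was Sod2 (0.78). The median over the 45 pairs was 0.50, and all pairs share the depth and length dependence of their libraries. On log2(FPKM + 1) as it stands, which keeps the difference between the genotypes, the tested gene with the profile most like that of Sod2 was Psmb6, a proteasome subunit gene (r = 0.996 over 8 libraries), then Pfdn6, a prefoldin subunit gene (0.993), and Rida (0.992). All 3 were lower in knockout liver, by log2 changes of -0.46, -0.82 and -1.04, so these correlations include that shared difference. Their principal transcripts have 798, 807 and 1004 bases, in contrast to the 5861 of Sod2. Their coding parts have 714, 381 and 405 bases and are short like that of Sod2, which has 666. On the same values, the profiles most like that of Cat were those of Tfip11, Efnb1 and Smarcc2 (r = 0.957, 0.953 and 0.951).

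The other genes of the pathway came from a list of 64, of which 63 were in the table and 55 were tested. Of these 9 were lower and 1 higher in knockout liver (limma), where 11.7% and 2.7% of all tested genes were. Their median log2 change was -0.17, against -0.08 over all tested genes. With the trend along principal transcript length removed 4 were lower, where 5.25% of all genes were, and 1 higher. Without knockouts 3 and 11 there were 4 lower (6.4% of all genes) and 0 higher in limma. At an unadjusted p under 0.05 there were 15 lower and 4 higher, where 1668 and 998 of 10250 genes were. Without wildtype 1 there were 3 lower (5.84% of all genes) and 0 higher, with 18 and 2 unadjusted (1943 and 574 over all genes).

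**Figure D5:**
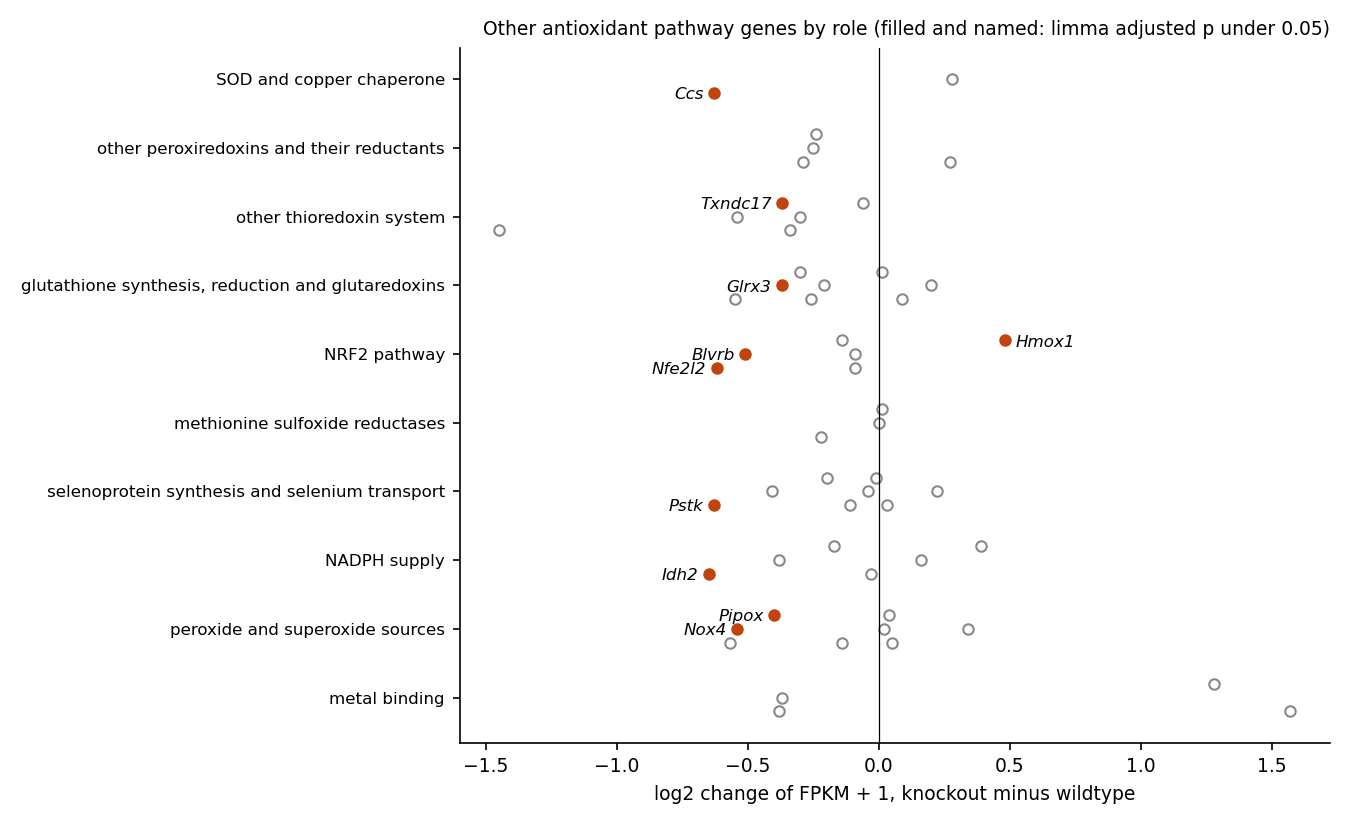
Log2 change (horizontal axis, FPKM + 1, knockout minus wildtype) of the 55 other tested pathway genes, grouped by role down the page; filled and named points passed in limma. Named points on the left are the 9 lower genes, and Hmox1 is the 1 higher gene.

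In the NRF2 pathway 6 genes were tested in limma, of which 2 were lower, Nfe2l2 and Blvrb, and 1 was higher, Hmox1. Over all tested genes 11.7% were lower and 2.7% higher. Nfe2l2 was at 14.2, 25.2, 18.7 and 19.5 FPKM in knockouts 3, 9, 10 and 11, against 33.15, 26.0, 33.5 and 27.2 FPKM in wildtypes 1, 3, 10 and 12 (log2 change -0.62, SE 0.16, limma adjusted p = 0.0339). Hmox1, which opens the heme ring, was at 9.73, 8.56, 10.4 and 8.71 FPKM in knockouts 3, 9, 10 and 11, against 6.09, 6.38, 5.43 and 7.97 FPKM in wildtypes 1, 3, 10 and 12 (0.48, SE 0.12, limma adjusted p = 0.0273). The groups were apart for both genes. Neither passed without knockouts 3 and 11, where the log2 change of Nfe2l2 was -0.44 (limma adjusted p = 0.136) and that of Hmox1 0.49 (0.093), as large as with all libraries. Nfe2l2 was also lost without knockout 3, 10 or 11 or wildtype 1, 10 or 12 (up to 0.0985), and Hmox1 without knockout 3 or 10 or wildtype 1, 3 or 10 (up to 0.0835). With the trend along principal transcript length removed Nfe2l2 did not pass (-0.55, limma adjusted p = 0.0527), while Hmox1 did (0.64, 0.0134). The same held with median-ratio scaling (-0.52, 0.0539 for Nfe2l2 and 0.57, 0.0181 for Hmox1). Blvrb, a biliverdin and flavin reductase gene, fell by 0.51 (0.0165), but did not pass with the trend along principal transcript length removed (-0.23, 0.157), without knockouts 3 and 11 (-0.35, 0.0586) or without wildtype 1 (0.0575). Keap1, Bach1 and Nqo1 did not pass.

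Among the NADPH suppliers Idh2, the mitochondrial isocitrate dehydrogenase that makes NADPH, was at 24.1, 25.0, 25.2 and 24.4 FPKM in knockouts 3, 9, 10 and 11, against 45.1, 35.5, 38.4 and 39.3 FPKM in wildtypes 1, 3, 10 and 12. The knockout libraries were nearly equal and all below the wildtype ones (log2 change -0.65, SE 0.09, limma adjusted p = 0.00398). Idh2 passed without each single library, without knockouts 3 and 11, and with each length trend removed. The other 5 suppliers tested, G6pdx, Pgd, Me1, Idh1 and Nnt, did not pass.

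Of the enzymes that produce peroxide or superoxide 2 of 8 tested were called lower, where 11.7% of all tested genes were. The median log2 change of the 8 was -0.06, against -0.08 over all tested genes. Pipox, a peroxisomal oxidase of pipecolic acid and sarcosine, fell by 0.40 (limma adjusted p = 0.0148; 0.0634 with median-ratio scaling), and Nox4, an NADPH oxidase gene, by 0.54 (0.0319). Nox4 did not pass without knockouts 3 and 11 (-0.39, 0.129) or without any single library but knockout 9 (up to 0.0896). Txndc17, a thioredoxin-related protein gene, fell by 0.37 (0.015), and was lost with the trend along principal transcript length removed (0.456) and without wildtype 1 (0.0585). Glrx3, a glutaredoxin gene, fell by 0.37 (0.0218) and Pstk, a kinase in selenocysteine tRNA synthesis, by 0.63 (0.0408). Neither of them passed without knockouts 3 and 11 (-0.34, 0.0947 for Glrx3 and -0.52, 0.167 for Pstk) or with the trend along principal transcript length removed (-0.23, 0.0555 for Glrx3 and -0.37, 0.215 for Pstk). Glrx3 was also lost without knockout 3 or wildtype 1, 10 or 12 (limma adjusted p up to 0.0646), and Pstk without any single library except knockout 9 and wildtype 10 (up to 0.0939).

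In 4 role groups no gene passed. Of the other glutathione peroxidases, Gpx2, Gpx3, Gpx7 and Gpx8, none reached a mean of 1 FPKM, and Gpx7 was at 0.477 to 1.01 FPKM in knockout and 0.284 to 0.986 FPKM in wildtype liver. Of the other peroxiredoxins and the sulfiredoxin gene, Prdx6 had the highest level, at 251 to 304 FPKM in knockout and 295 to 367 FPKM in wildtype liver (log2 change -0.29, limma adjusted p = 0.0927). Msra led the methionine sulfoxide reductases, at 47.7 to 57.3 FPKM in knockout and 57.3 to 64.7 FPKM in wildtype liver (-0.22, 0.161). Among metal binding genes Ftl1, the ferritin light chain gene, was at 1671 to 2607 FPKM in knockout and 2668 to 3246 FPKM in wildtype liver (-0.38, 0.134).

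Promoters of the 10 genes were read from RefSeq (GRCm38.p6, 250 bases before to 50 after a start), which held 15 windows for them. The FoxO motif TGTTTAC, on either strand, was found in 0 of the 15 and in 3.65% of all 32851 windows. The antioxidant response element TGACNNNGC, the motif of NRF2, was found in 3 of the 15, in Sod1, Prdx1 and 1 of 3 Txnrd1 windows, and in 12.4% of all windows. The AP-1 motif TGANTCA was found in Prdx1, where 1 of its 2 matches overlaps the antioxidant response element, and in 7.81% of all windows. The GC box GGGCGG was found in 12 of the 15 windows, in 35.7% of all windows and in 61.7% of those of tested genes. A match is a description of these letters and no evidence of binding. The 250 bases before the start are shown for the 3 genes with the antioxidant response element, in capitals and on the opposite strand in each, and for Sod2, with its 4 GC boxes in capitals.
Sod1, chr16:90220512-90220761, plus strand: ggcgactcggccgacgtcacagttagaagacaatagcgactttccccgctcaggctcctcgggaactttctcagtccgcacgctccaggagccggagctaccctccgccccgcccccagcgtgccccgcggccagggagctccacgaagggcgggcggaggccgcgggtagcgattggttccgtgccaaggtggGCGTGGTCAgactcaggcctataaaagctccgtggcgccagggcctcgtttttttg
Prdx1, chr4:116685349-116685598, plus strand: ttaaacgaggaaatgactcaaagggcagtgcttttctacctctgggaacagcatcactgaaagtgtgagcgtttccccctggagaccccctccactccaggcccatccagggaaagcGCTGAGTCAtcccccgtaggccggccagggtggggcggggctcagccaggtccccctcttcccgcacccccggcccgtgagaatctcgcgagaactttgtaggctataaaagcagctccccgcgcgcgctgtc
Txnrd1, chr10:82858956-82859205, plus strand: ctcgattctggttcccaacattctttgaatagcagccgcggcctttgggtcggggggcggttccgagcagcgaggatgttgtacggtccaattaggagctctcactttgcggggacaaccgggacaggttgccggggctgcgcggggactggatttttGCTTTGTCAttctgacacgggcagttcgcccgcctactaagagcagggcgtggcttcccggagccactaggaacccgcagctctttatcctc
Sod2, chr17:13007589-13007838, plus strand: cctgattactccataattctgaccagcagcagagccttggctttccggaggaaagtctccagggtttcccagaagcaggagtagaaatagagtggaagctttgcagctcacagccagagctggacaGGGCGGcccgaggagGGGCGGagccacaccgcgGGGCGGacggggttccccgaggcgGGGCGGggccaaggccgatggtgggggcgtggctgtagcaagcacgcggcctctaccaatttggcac
Of the 3 genes with the element Sod1 fell, and Prdx1 and Txnrd1 did not pass.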

How the data were processed

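Liver RNA of mice was measured by RNA-seq in 8 libraries. The deposited values are FPKM for 25690 Ensembl genes, a unit read from the values and the tools named, since the header gives only library names. TopHat2 2.1.0, HTSeq, Cufflinks 2.2.1 and the build mm10 come from the submitters' processing notes, which assign them no step. Strand setting and annotation: not given in the sources used here. Because the unit is not a count, tests were run on log values. Depth was estimated at 27.2 M to 35.2 M fragments per library from the FPKM of a single fragment in genes with 1 transcript over 1500 bases.

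Groups came from the titles and genotype labels. Gene names (24807 found), positions, lengths and GC content came from GENCODE M21, also mm10. The 10250 genes averaging 1 FPKM or more were kept. log2(FPKM + 1) was fitted in limma 3.58.1 (R 4.3.3) on genotype alone, with variances moderated along the mean, and two-sided p-values were adjusted over all tested genes by Benjamini-Hochberg, with a threshold of 0.05. A fold change on this scale understates that of low genes. Length and GC trends were removed per library with a symmetric loess of span 0.5. Library weights are limma's array weights. Ratios of 2 genes were compared with exact permutation tests in scipy 1.17.1. Steps were tested on simulated data.

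The genes and lists were chosen with earlier results of these data known. The genes named are the 10 members, Foxo1, every other pathway gene that passed, the most abundant gene of each role group with none, and the 3 profiles most like Sod2 and Cat. Sod3, the GC box, the ratio tests, the selenoprotein and metallothionein genes, the trends along principal transcript and coding length, and leaving out knockouts 3 and 11 with a length trend removed were chosen after seeing the data. Alternatives changed the pseudocount, the filter, the scaling, the variance model or the library weights, took the title number as a block, or left out libraries. Cyba was not analysed here.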

Additional observations from a re-analysis of the deposited data

Results flagged for a closer look

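Txnrd1 in wildtype 3 stood apart from the other libraries of its group, at 1.15 FPKM against 1.30 to 1.32 FPKM in wildtypes 1, 10 and 12, a gap of 0.914 of the group's range. It was the 1 value set apart among 42 groups of 4 libraries checked, and chance sets apart about 1 in 20 such groups.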

How the results depend on the processing

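Removing the trend along the longest transcript left 3 of the 10 genes lower (585 lower and 516 higher over all genes), along the principal transcript 1 (533 and 488), and along coding length 0 (532 and 462). Median-ratio scaling left 2 (720 and 485), no filter 3 (918 and 229 of 19052 genes), and quantile normalization 0 (652 and 470). With quantile normalization 3 were lower at an unadjusted p under 0.05 in limma, where 1624 were over all genes. Without knockouts 3 and 11 there were 2 (656 lower over all genes), and with the principal transcript trend also removed 0 (208 and 155). With both changes 2 were lower at an unadjusted p under 0.05 in limma (1250 over all genes). Removing the GC trend left 4 (813 lower and 549 higher over all genes). A pseudocount of 0.1 also left 4 (1176 lower over all genes), robust variances 5 (1203) and library weights 6 (1369). With a mean of at least 5 FPKM required, 6 of the 9 tested were lower, where 1197 of 6003 genes were. Of the other pathway genes 5 were lower with median-ratio scaling and 3 with quantile normalization. There were 4 lower and 2 higher along the longest transcript, 4 and 1 along the principal one, and 6 and 3 along coding length. Without knockouts 3 and 11 there were 4 lower and 0 higher, and with the principal trend also removed 2 and 0. No filter gave 0 higher. The cause of these shifts was not tested. With each library left out in turn, 0 to 5 of the 10 genes were lower, 599 to 1294 genes were lower and 102 to 360 higher in all, and 3 to 11 other pathway genes were lower and 0 to 1 higher. In every alternative run 0 of the 10 genes were higher at an adjusted p under 0.05.

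Prdx3, at -0.01, turned to 0.10 with median-ratio scaling or the GC trend removed and to 0.17 with quantile normalization. It was at 0.19, 0.17 and 0.14 with the trends along longest, principal and coding length removed, at 0.04 with the replicate block, and at 0.01 without knockouts 3 and 11 (0.15 with the principal trend also removed). It was at 0.01 without knockout 10, 0.0026 without knockout 11, and 0.02 without wildtype 1 or wildtype 12. Gpx1 turned to 0.05 along the longest and the principal transcript, Txnrd1 to 0.01 with the GC trend removed or without knockouts 3 and 11, and Gpx4 to 0.02 with both changes. Cat turned to -0.01 without knockout 10 and -0.02 without wildtype 3. With each library left out in turn, Cat ran from -0.02 to 0.11 and Prdx3 from -0.05 to 0.02.

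The numbers 3 and 10 stand in both groups, and the labels do not say whether they pair the libraries. The deviations of same-numbered libraries correlated at r = -0.0079 and 0.022, which with so few libraries cannot settle it. With the number as a replicate block limma called 1 gene lower and 1 higher in all (1166 and 527 at an unadjusted p under 0.05). It called 0 of the 10 genes (1 lower unadjusted) and 0 other pathway genes lower and 0 higher (10 and 4 unadjusted). This fit compares only the libraries numbered 3 and 10, and has little power. Foxo1 itself did not pass in it (log2 change -1.69, limma adjusted p = 0.175), so these counts cannot judge the calls. Depth limits Txnrd1 most.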

Other observations

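Gpx1, Gpx4 and Txnrd1 belong to the genes for which GENCODE marks a selenocysteine codon, 24 of which were in the table and 16 tested. In limma 2 were lower and 1 higher in knockout liver, where 11.7% and 2.7% of all tested genes were, with a median log2 change of -0.18 against -0.08 over all tested genes. The higher one was Dio1, the deiodinase gene that activates thyroid hormone, at 171, 153, 80.1 and 172 FPKM in knockouts 3, 9, 10 and 11, against 44.5, 22.3, 59.1 and 47.8 FPKM in wildtypes 1, 3, 10 and 12 (log2 change 1.72, SE 0.32, limma adjusted p = 0.00999). The lower ones were Gpx4 and Selenoh, which was at 2.025 to 2.83 FPKM in knockout and 3.92 to 5.81 FPKM in wildtype liver (-0.75, SE 0.12, limma adjusted p = 0.00618). Dio1 and Selenoh are singled out here with their values already seen.

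The metallothionein genes Mt1 and Mt2, whose products bind zinc and copper, were high in knockouts 3 and 11, as the acute phase transcripts were. Mt1 reached 5968 and 4944 FPKM in knockouts 3 and 11, with 573 and 667 FPKM in knockouts 9 and 10, against 469 to 1002 FPKM in wildtype liver. Mt2 reached 4017 and 3529 FPKM in knockouts 3 and 11, with 108 and 346 FPKM in knockouts 9 and 10, against 256.5 to 645 FPKM in wildtype liver. Neither passed in limma (adjusted p = 0.196 and 0.458), and both are likewise singled out after the fact.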
